A study of Mus musculus with 4 samples.

Results

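The integrated stress response and the enzymes that charge tRNA were examined through 39 genes in sorted mouse embryonic stem cells (ESCs). The genes were taken by name: 10 genes of the stress response itself, 9 genes of amino acid synthesis and transport, and 20 cytosolic aminoacyl-tRNA synthetase genes. All 39 had a row in each of the 4 libraries, among 24190 gene symbols. The cells were E14Tg2a, an established male mouse ESC line, in serum-free N2B27 medium with the MEK inhibitor PD0325901 and the GSK3β inhibitor CHIR99021, which all groups shared. Stably integrated in each of 2 clonal lines was a Zscan4c promoter, which is active in the rare ESCs that transcribe genes of the mouse 2-cell embryo. In the GFP-Zscan4c line this promoter drove a GFP-Zscan4c fusion, and in the GFP line it drove GFP alone, so each construct is represented by 1 clone. Each line was sorted into GFP-positive cells, called 2C-like in the labels, and GFP-negative cells, called pluripotent. Poly-A RNA was sequenced from each population, with 1 library for each. There is thus no replicate error within a population, and nothing in the labels says that the lines were grown as separate cultures.

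In this response, kinases that sense amino acid shortage, unfolded protein in the endoplasmic reticulum, viral RNA or haem deficiency phosphorylate the translation factor eIF2. General translation then slows, while the mRNA of the transcription factor ATF4 is translated more. ATF4, paired with C/EBP proteins, activates genes for amino acid synthesis, amino acid uptake and tRNA charging, along with stress regulators such as CHOP, the product of Ddit3. Because ATF4 is controlled largely at translation, its mRNA level is not a measure of its activity.

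ATF4 with a C/EBP partner binds composite sites called CARE, and the promoters below are shown because members of all 3 groups carry a match to this element. The motif was searched as TGATGNAAN on both strands in RefSeq promoter windows of 300 bases (250 before and 50 after the start site, build GRCm38.p6). A window was found for 31 of the 39 members. The motif occurred in 11 of these 31 (35.5%), against 4.50% of 27025 gene symbols with a window. Each sequence is a stretch upstream of the start site, 5′ to 3′ on the gene's strand, with the match in capitals. Capitals ending in ATCA are the motif read on the opposite strand.
Atf3 (chr1:191183411-191183469, minus strand): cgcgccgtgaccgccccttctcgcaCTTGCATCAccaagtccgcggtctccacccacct
Nupr1 (chr7:126625548-126625606, minus strand): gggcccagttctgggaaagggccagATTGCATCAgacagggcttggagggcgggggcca
Chac1 (chr2:119351023-119351081, plus strand): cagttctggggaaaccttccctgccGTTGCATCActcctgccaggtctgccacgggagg
Asns (chr6:7693210-7693257, minus strand): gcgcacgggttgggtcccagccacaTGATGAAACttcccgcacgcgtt
Slc7a11 (chr3:50443646-50443704, minus strand): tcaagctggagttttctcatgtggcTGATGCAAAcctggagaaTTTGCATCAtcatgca
Aars (chr8:111033704-111033762, plus strand): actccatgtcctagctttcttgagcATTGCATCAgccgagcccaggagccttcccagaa
Gars (chr6:55037945-55038000, plus strand): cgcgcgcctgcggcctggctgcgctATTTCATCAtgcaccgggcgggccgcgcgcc
Tars (chr15:11399659-11399699, minus strand): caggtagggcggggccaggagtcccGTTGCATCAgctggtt

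Slc7a11 carries a pair of matches in opposite orientation, starting 66 and 48 bases before the start site. In Asns, which codes for asparagine synthetase, the match starts 23 bases before it. Atf3 and Nupr1 have theirs 111 bases before it, on the opposite strand. Trib3, Iars and Yars matched only downstream of the start site, and Aars matched on both sides of it. By group, 4 of 10 stress response genes, 2 of 8 amino acid genes and 5 of 13 synthetase genes with a window had a match. No member window held TGACGTCA, a cyclic AMP response element, against 2.03% of all symbols. A match is a stretch of letters and not a measured binding site. Members with and without a match had like median log2 ratios between GFP-positive and GFP-negative cells, at 0.10 and 0.14 in the GFP-Zscan4c line and at 0.04 and 0.04 in the GFP line. For the GFP-Zscan4c line over the GFP line they were 0.19 and 0.29 in GFP-positive cells and 0.20 and 0.21 in GFP-negative cells.

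**Figure D1:**
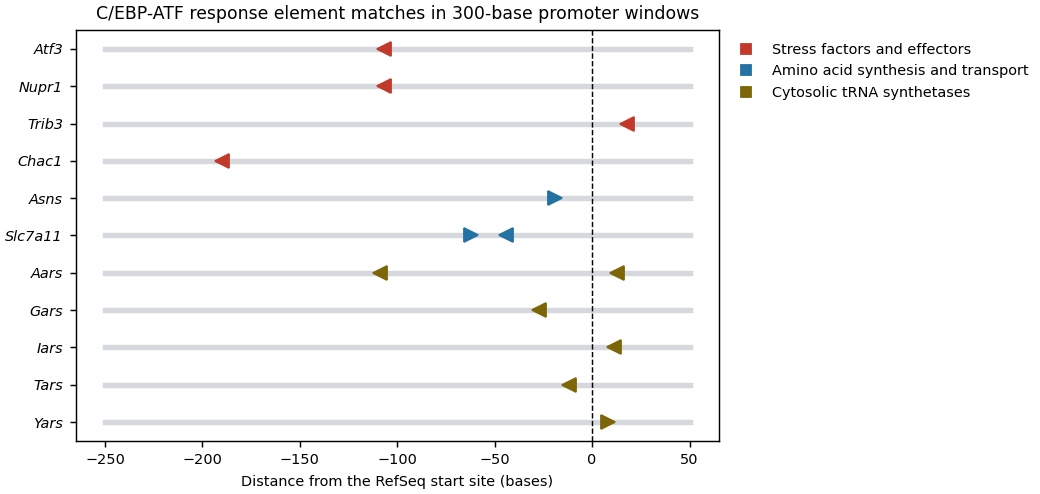
Position of each CARE match relative to the RefSeq start site (x axis, bases) in the 11 member promoters that hold one (rows), with the arrow pointing along the strand of the match. The matches of Atf3, Nupr1, Chac1, Asns, Slc7a11, Gars and Tars lie upstream, while those of Trib3, Iars and Yars lie just downstream of that start site.

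Values are TPM, a transcript level scaled for length and for the total of its library, summed over the listed transcripts of a gene. Read depth is unknown, since TPM keep no counts. The sort can be checked from 13 genes of the 2C-like state, whose summed level was 2176 TPM in GFP-positive and 59.2 TPM in GFP-negative cells from the GFP-Zscan4c line, and 1207 TPM in GFP-positive and 63.2 TPM in GFP-negative cells from the GFP line. Summed levels of 9 pluripotency markers were between 3033 and 3662 TPM in all 4 libraries. Of 24190 symbols, the GFP-negative library from the GFP line listed 48.4% at 0, against 11.6% to 19.5% in the other 3. A 0 in that library is therefore not read as absence, and both comparisons that use it are read beside the share of all genes that moved. In sorted bulk RNA, a change in the share of cells that express a gene and a change in RNA per cell cannot be told apart.

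Most members were abundant and steady. The median member had a mean of 110.7 TPM over the 4 libraries, against 16.2 TPM for the 11798 symbols at 5 TPM or more in any library. Asns led with a mean of 450.2 TPM, and Atf3 was lowest with 2.39 TPM. From the lowest to the highest library, 31 of 39 members (79.5%) spanned less than 2-fold on the log2(TPM + 1) scale. The same held for 47.6% of symbols at 5 TPM or more in any library and for 70.4% of those at 30 TPM or more. Of the members, 36 reached 30 TPM in the GFP-Zscan4c line. Transcripts of protein-coding type made up 88.9% to 91.1% of the members' summed TPM across libraries, against 62.5% to 66.3% of the sum over all symbols. Besides Ddit3 and Mars, the overlaps with a coding gene or a pseudogene on the opposite strand include Slc7a5 with Gm20388 (26545 bases), Cebpb with Tmem189 (908 bases), Cars with Gm15580 (556 bases) and Hars with Hars2 (198 bases), and their values carry that uncertainty.

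**Figure D2:**
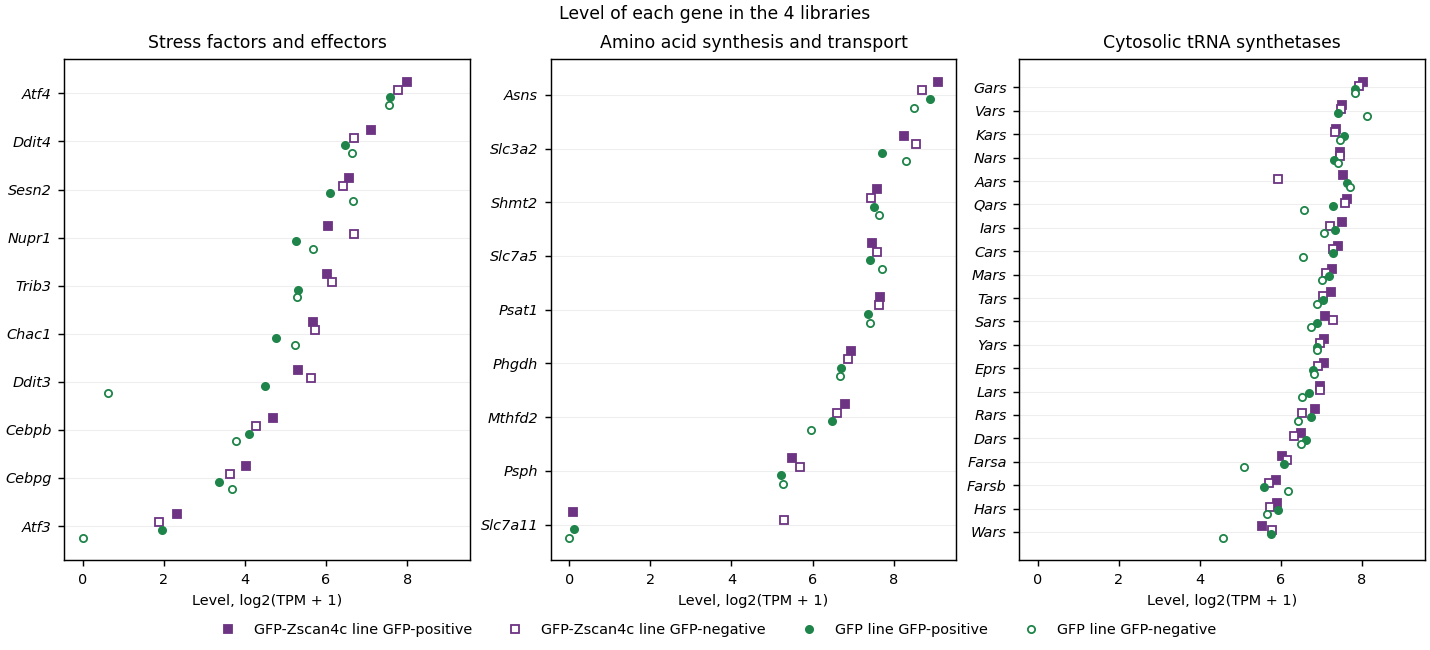
Level of each of the 39 members in the 4 libraries (x axis, log2(TPM + 1)), by group of genes. The 4 points of most genes lie close together, and the exceptions are Ddit3, Atf3, Slc7a11, Aars and, less far apart, Wars, Farsa and Nupr1.

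GFP-positive and GFP-negative cells were compared within each line, which asks whether 2C-like cells differ from pluripotent cells in these genes. Few members did: of 38 members at 5 TPM or more in either population of the GFP-Zscan4c line, Aars was 2-fold or more higher in GFP-positive cells and Slc7a11 was 2-fold or more lower. Across all 10981 genes of that comparison, 8.23% were higher and 3.14% lower by this rule. Among 37 members in the GFP line, Ddit3 and Wars were 2-fold or more higher in GFP-positive cells and 0 were lower, against 33.2% and 7.48% of 11062 genes. With quantile normalization Wars had a log2 ratio of 0.99 and Cebpg was 2-fold or more lower, which made 1 higher and 1 lower. None of these 4 genes was past 2-fold in both lines.

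Atf4 itself was nearly level, at 254 TPM in GFP-positive and 220 TPM in GFP-negative cells from the GFP-Zscan4c line and at 189 TPM in GFP-positive and 186 TPM in GFP-negative cells from the GFP line. For this gene both libraries of the GFP-Zscan4c line lay above both of the GFP line. Its log2 ratio of GFP-positive over GFP-negative cells was 0.21 in the GFP-Zscan4c line and 0.03 in the GFP line. For comparison, the median over all genes tested was 0.14 in the GFP-Zscan4c line and 0.19 in the GFP line.

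Ddit3 (chr10:127290774-127296288, plus strand, GENCODE M21 on GRCm38) was far apart between the lines. It codes for CHOP. In the GFP-Zscan4c line it stood at 38.4 TPM in GFP-positive and 48.8 TPM in GFP-negative cells, a log2 ratio of -0.34. The GFP line had 21.5 TPM in GFP-positive and 0.527 TPM in GFP-negative cells, a log2 ratio of 3.88. Its low value is that of a single library, the one with the many zeros, and there the coding transcripts of Ddit3 were listed at 0 and a retained-intron transcript held the whole value. Ddit3 shares 68 bases with Mars on the opposite strand, and whether reads were assigned by strand is not given in the sources used here.

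Atf3, a stress-induced transcription factor, was low throughout, at 3.97 TPM in GFP-positive and 2.69 TPM in GFP-negative cells from the GFP-Zscan4c line and at 2.90 TPM in GFP-positive cells from the GFP line. It was listed at 0 in GFP-negative cells from the GFP line, and it did not reach 5 TPM in any library.

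Nupr1, a small stress-induced chromatin-associated protein, had a lower summed level in GFP-positive cells of both lines. It was at 64.8 TPM in GFP-positive and 103 TPM in GFP-negative cells from the GFP-Zscan4c line, and at 37.3 TPM in GFP-positive and 50.6 TPM in GFP-negative cells from the GFP line. The coding transcript of Nupr1 alone ran the other way in the GFP-Zscan4c line, at 50.4 TPM in GFP-positive and 14.4 TPM in GFP-negative cells, and was at 15.9 TPM in GFP-positive and 49.9 TPM in GFP-negative cells from the GFP line. Chac1, which breaks down glutathione, was lower in GFP-positive cells, with log2 ratios of -0.05 in the GFP-Zscan4c line and -0.48 in the GFP line. Atf3, Atf4 and Cebpb had ratios above 0 in both lines. The remaining 5 stress response genes, which include Trib3, Sesn2 and Ddit4, had ratios of opposite sign in the 2 lines, except that Cebpg was above 0 in both with coding transcripts alone. The group median was 0.17 in the GFP-Zscan4c line and -0.06 in the GFP line. It moved to 0.015 with median-ratio scaling in the GFP-Zscan4c line and to 0.087 with coding transcripts in the GFP line.

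Among the amino acid genes, Asns had the higher value in both GFP-positive libraries. Its levels were 543 TPM in GFP-positive and 416 TPM in GFP-negative cells from the GFP-Zscan4c line, and 479 TPM in GFP-positive and 363 TPM in GFP-negative cells from the GFP line. Neither GFP-positive library overlapped the GFP-negative ones. The log2 ratios were 0.38 in the GFP-Zscan4c line and 0.40 in the GFP line. Slc3a2, the heavy chain that carries the amino acid exchangers Slc7a5 and Slc7a11 to the cell surface, lay on the other side. It was at 304 TPM in GFP-positive and 373 TPM in GFP-negative cells from the GFP-Zscan4c line, and at 209 TPM in GFP-positive and 316 TPM in GFP-negative cells from the GFP line. Slc7a5, its partner in the uptake of leucine and other large amino acids, had log2 ratios of -0.13 in the GFP-Zscan4c line and -0.30 in the GFP line, again with no overlap between GFP-positive and GFP-negative libraries.

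The serine pathway stayed near level. Phgdh, the first enzyme of serine synthesis, had log2 ratios of 0.08 in the GFP-Zscan4c line and 0.04 in the GFP line. Psat1, the next enzyme, had 0.02 in the GFP-Zscan4c line and -0.05 in the GFP line. Psph, the last enzyme, had -0.20 in the GFP-Zscan4c line and -0.04 in the GFP line. With coding transcripts alone, the GFP line values were 0.04 for Psat1 and 0.31 for Psph. Mthfd2, a mitochondrial folate enzyme, was higher in GFP-positive cells of both lines, with log2 ratios of 0.21 in the GFP-Zscan4c line and 0.50 in the GFP line. Shmt2, which feeds serine into that pathway, had 193 TPM in GFP-positive and 172 TPM in GFP-negative cells from the GFP-Zscan4c line, against a lower GFP-positive value in the GFP line of 180 TPM beside 200 TPM in GFP-negative cells. Over the 9 genes the median was 0.02 in the GFP-Zscan4c line and -0.04 in the GFP line.

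Slc7a11, the cystine and glutamate exchanger, was close to 0 in 3 libraries and at 38.6 TPM in GFP-negative cells from the GFP-Zscan4c line. GFP-positive cells had 0.064 TPM in the GFP-Zscan4c line and 0.092 TPM in the GFP line, and GFP-negative cells from the GFP line were listed at 0. Nearly all of the high value, 38.5 TPM, came from 1 processed transcript that was listed at 0 in the other 3 libraries. No coding transcript of Slc7a11 was among those listed, so its coding mRNA was not analysed here.

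The synthetases showed small ratios. Their median was 0.11 in the GFP-Zscan4c line, where 16 of 20 were above 0, and 0.16 in the GFP line, where 13 of 20 were. Of all genes tested, 67.8% were above 0 in the GFP-Zscan4c line, with a median of 0.14. In the GFP line 59.2% were, with a median of 0.19. With median-ratio scaling, which moved the all-gene median of the GFP-Zscan4c line to -0.01, 7 of 20 were above 0 there, against 49.0% of genes. In the GFP line 16 of 20 were above 0 with that scaling, against 60.8% of genes. With quantile normalization 12 of 20 were above 0 in the GFP-Zscan4c line, against 45.2% of genes. In the GFP line 18 of 20 then were, against 50.4% of genes, so the count depended on the scaling. Gars, which charges glycine tRNA and is the most abundant synthetase, had 259 TPM in GFP-positive and 242 TPM in GFP-negative cells from the GFP-Zscan4c line. In the GFP line it was at 226 TPM in both GFP-positive and GFP-negative cells. Kars, the lysine enzyme, lay between 161 and 186 TPM in all 4 libraries. Vars, the valine enzyme, was at 180 TPM in GFP-positive and 177 TPM in GFP-negative cells from the GFP-Zscan4c line. In the GFP line it was at 168 TPM in GFP-positive cells, below the 279 TPM of GFP-negative cells.

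Aars (chr8:111033144-111057664, plus strand), the alanine enzyme, had 184 TPM in GFP-positive and 59.7 TPM in GFP-negative cells from the GFP-Zscan4c line, and 195 TPM in GFP-positive and 206 TPM in GFP-negative cells from the GFP line. Only the GFP-negative library from the GFP-Zscan4c line stood apart, which gave a log2 ratio of 1.61 in that line and -0.07 in the GFP line. The difference lay in coding transcripts, at 180 TPM in GFP-positive and 48.3 TPM in GFP-negative cells from the GFP-Zscan4c line. Aars shares 1326 bases on the same strand with Exosc6, a gene that was not analysed here.

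Wars, the tryptophan enzyme, and Farsa, a subunit of the phenylalanine enzyme, were low in a different library. Wars was at 45.5 TPM in GFP-positive and 53.7 TPM in GFP-negative cells from the GFP-Zscan4c line, and at 52.5 TPM in GFP-positive and 22.8 TPM in GFP-negative cells from the GFP line. Farsa was at 63.8 TPM in GFP-positive and 69.8 TPM in GFP-negative cells from the GFP-Zscan4c line, and at 66.2 TPM in GFP-positive and 33.3 TPM in GFP-negative cells from the GFP line. For both genes the GFP-negative library from the GFP line was the lowest of the 4. In that library only 0.64 TPM of Farsa was from coding transcripts, and 32.2 TPM was from a transcript annotated for nonsense-mediated decay. Farsb, the partner subunit, was at 70.7 TPM there, above the 46.9 to 57.9 TPM of the other libraries.

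**Figure D3:**
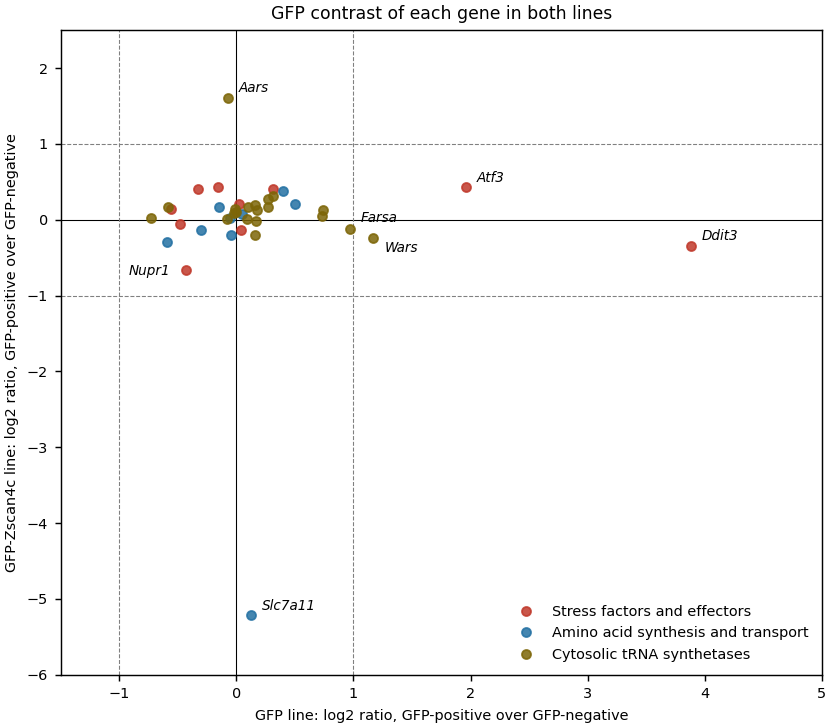
Log2 ratio of GFP-positive over GFP-negative cells, log2((TPM + 1)/(TPM + 1)), in the GFP-Zscan4c line against the same ratio in the GFP line, 1 point for each member. Most members cluster near 0 in both lines, with Ddit3, Aars and Slc7a11 far from 0 in 1 line each.

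By structure, the synthetases fall into the unrelated class I and class II folds, and 8 of the 20 assemble into the multisynthetase complex of the cytosol. Of those 8, 6 were higher in GFP-positive cells of both lines, and of the 12 free enzymes 3 were. Among the 6, Kars and Qars had log2 ratios of only 0.01 and 0.06 in the GFP-Zscan4c line. These counts use the TPM as deposited and were not repeated with other scalings. The summed level of the complex enzymes was 1147 TPM in GFP-positive and 1049 TPM in GFP-negative cells from the GFP-Zscan4c line, and 1058 TPM in GFP-positive and 902 TPM in GFP-negative cells from the GFP line. Class I and class II medians were 0.11 and 0.13 in the GFP-Zscan4c line and 0.23 and 0.10 in the GFP line. For all genes at 5 TPM or more in any library, 44.3% were higher in GFP-positive cells of both lines. Neither share of the enzymes was tested against it.

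Across the 4 libraries, both GFP-positive values lay above both GFP-negative values for 7 of 38 members at 5 TPM or more, which were Asns and the synthetases Cars, Hars, Iars, Mars, Tars and Rars. Of 11798 genes, 33.2% did so. Both lay below for Slc7a5 and Slc3a2, against 9.54% of genes. With coding transcripts alone, Cars, Mars and Slc3a2 overlapped between the populations and Qars joined the genes above. This made 6 of 37 members above and 1 below, and the share over all genes was not computed for coding transcripts. The coding level of Cars was 93.1 TPM in GFP-positive and 112 TPM in GFP-negative cells from the GFP-Zscan4c line, a log2 ratio of -0.27, and 96.5 TPM in GFP-positive and 71.8 TPM in GFP-negative cells from the GFP line. In limma, fitted over 14379 genes with line as a covariate and 1 residual degree of freedom, 0 of 38 members and 0.0% of all genes passed an adjusted p of 0.05 for GFP status. At an unadjusted p under 0.05 there were 1 member and 972 genes. That member was Asns, with an estimate of 0.39 and a standard error of 0.12 on the log2 scale, higher in both GFP-positive libraries (limma unadjusted p = 0.0358, Benjamini-Hochberg adjusted p = 0.627).

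The lines were then compared within each sorted population. Among GFP-positive cells this sets cells with the GFP-Zscan4c fusion against cells with GFP alone. GFP-negative cells carry the same constructs but were sorted for lack of GFP, so there it compares the lines only. In GFP-positive cells all 10 stress response genes were higher in the GFP-Zscan4c line. Their log2 ratios lay between 0.35 and 0.91 with a median of 0.66, against 55.9% of all genes above 0 and a median of 0.05. None of them reached 2-fold, and 0 of 37 members did in either direction, where 5.71% of 11126 genes were 2-fold or more higher and 4.05% lower. The 10 genes were also all higher under median-ratio scaling, under quantile normalization and with coding transcripts alone. In GFP-negative cells 8 of the 10 were higher, with a median of 0.49, against 51.7% of genes and a median of 0.04.

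Chac1 had the largest of these ratios in GFP-positive cells, 0.91, followed by Ddit3 with 0.81 and Nupr1 with 0.78. Chac1 was at 50.1 TPM in GFP-positive and 51.9 TPM in GFP-negative cells from the GFP-Zscan4c line, and at 26.1 TPM in GFP-positive and 36.9 TPM in GFP-negative cells from the GFP line. Trib3, a pseudokinase that ATF4 induces and that restrains it, was at 63.8 TPM in GFP-positive and 70.0 TPM in GFP-negative cells from the GFP-Zscan4c line, against 38.9 TPM in GFP-positive and 37.8 TPM in GFP-negative cells from the GFP line. In both genes each library from the GFP-Zscan4c line lay above each library from the GFP line.

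Ddit4, an inhibitor of the growth kinase complex mTORC1, was at 138 TPM in GFP-positive and 102 TPM in GFP-negative cells from the GFP-Zscan4c line, and at 87.8 TPM in GFP-positive and 97.8 TPM in GFP-negative cells from the GFP line. The gap between lines was wide in GFP-positive cells and narrow in GFP-negative cells. Sesn2, another mTORC1 inhibitor that senses leucine, was higher in the GFP-Zscan4c line only among GFP-positive cells, at 93.2 TPM against 67.5 TPM in the GFP line. Among GFP-negative cells it was at 84.6 TPM in the GFP-Zscan4c line and 99.6 TPM in the GFP line. Cebpb and Cebpg, C/EBP proteins that can pair with ATF4, were at 24.6 and 15.3 TPM in GFP-positive cells from the GFP-Zscan4c line and at 16.1 and 9.22 TPM in those of the GFP line. Cebpg was the second gene that was not higher among GFP-negative cells, with 11.3 TPM in the GFP-Zscan4c line and 11.8 TPM in the GFP line. Retained-intron transcripts made up 4.99 TPM of the GFP line value, and the coding level of Cebpg was higher in the GFP-Zscan4c line, at 10.3 TPM against 6.80 TPM.

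Summed over the 10 genes, the stress group was at 746 TPM in GFP-positive and 712 TPM in GFP-negative cells from the GFP-Zscan4c line, and at 496 TPM in GFP-positive and 534 TPM in GFP-negative cells from the GFP line. Both libraries of the GFP-Zscan4c line lay above both of the GFP line for 7 of the 10, against 16.6% of 11798 genes. Nupr1 is among these 7, and its coding transcript overlapped between the lines. A marker of another state moved with the line in the same way. Otx2, a transcription factor of primed pluripotency, was at 62.1 TPM in GFP-positive and 55.6 TPM in GFP-negative cells from the GFP-Zscan4c line, and at 24.7 TPM in GFP-positive and 24.3 TPM in GFP-negative cells from the GFP line. Pou3f1, of the same list, was at 8.90 TPM in GFP-positive and 6.31 TPM in GFP-negative cells from the GFP-Zscan4c line. In the GFP line Pou3f1 was at 7.34 TPM in GFP-positive and 5.16 TPM in GFP-negative cells, so the lines overlapped. The list, of which 4 of 6 genes had a row, got most of its sum from Otx2. It summed to 74.7 TPM in GFP-positive and 61.9 TPM in GFP-negative cells from the GFP-Zscan4c line. In the GFP line it summed to 34.6 TPM in GFP-positive and 29.4 TPM in GFP-negative cells. Its mesoderm genes Eomes and Mixl1 were at 3.42 TPM or less in all libraries, with Eomes listed at 0 in GFP-negative cells of each line and Mixl1 listed at 0 in 3 of the 4. The summed 2C-like genes were also higher in the GFP-Zscan4c line among GFP-positive cells, by the values given above. The part of either in the stress genes was not tested. Each line is 1 clone, so the fusion and the clone cannot be told apart.

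**Figure D4:**
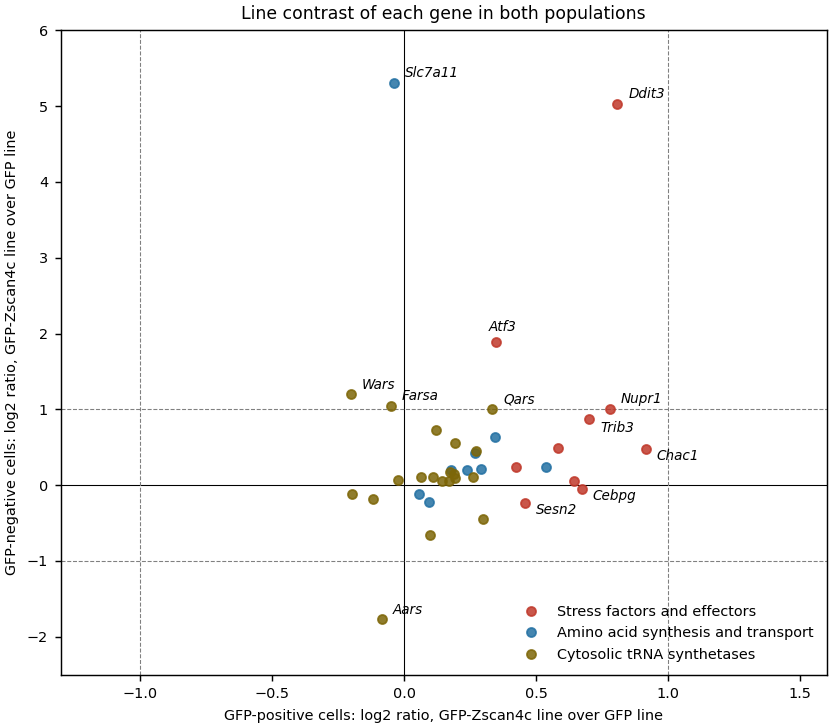
Log2 ratio of the GFP-Zscan4c line over the GFP line in GFP-positive cells against the same ratio in GFP-negative cells, 1 point for each member, by group. All 10 stress response genes lie above 0 in GFP-positive cells, where the synthetases spread closely around a median of 0.13. In GFP-negative cells the synthetases range from -1.77 to 1.20.

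The amino acid genes and the synthetases leaned the same way, by less. With coding transcripts alone, the share of synthetases that were higher in GFP-positive cells was near that of all genes. Among GFP-positive cells 8 of 9 amino acid genes were higher in the GFP-Zscan4c line, with a median log2 ratio of 0.24. Among GFP-negative cells 7 of 9 were, with a median of 0.21. Of all genes, 55.9% were higher in GFP-positive cells and 51.7% in GFP-negative cells. Slc3a2 had the largest ratio in GFP-positive cells, 0.54, and Psat1, Phgdh, Psph and Mthfd2 were higher in each library from the GFP-Zscan4c line than in each of the GFP line. Psat1 was at 201 TPM in GFP-positive and 197 TPM in GFP-negative cells from the GFP-Zscan4c line, and at 164 TPM in GFP-positive and 170 TPM in GFP-negative cells from the GFP line. Phgdh was at 123 TPM in GFP-positive and 116 TPM in GFP-negative cells from the GFP-Zscan4c line, and at 104 TPM in GFP-positive and 101 TPM in GFP-negative cells from the GFP line.

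Synthetases had a median of 0.13 in GFP-positive cells, where 14 of 20 were higher in the GFP-Zscan4c line, against 55.9% of genes. In GFP-negative cells their median was 0.11 and 15 of 20 were higher, against 51.7% of genes. With coding transcripts alone, 11 of 20 were higher in GFP-positive cells, against 56.2% of genes. Their median was then 0.08, against 0.05 for all genes. With all transcripts, class I enzymes were higher in 9 of 10 cases in GFP-positive cells and class II enzymes in 5 of 10. With coding transcripts alone, the class I enzymes Cars, Rars and Qars turned below 0 there, at -0.05, -0.004 and -0.65. No class II enzyme turned sign, so the classes then lay closer together. Eprs, Gars, Lars, Nars, Sars, Yars and Qars, 7 of 20, were higher in each library from the GFP-Zscan4c line than in each of the GFP line. Of 11798 genes, 16.6% were. With coding transcripts alone, Mars took the place of Qars. Dars and Kars, for aspartate and lysine, and Aars were lower in each library from the GFP-Zscan4c line than in each of the GFP line. These are 3 of 20, against 16.4% of genes.

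Among GFP-negative cells 6 of 38 members were 2-fold or more higher in the GFP-Zscan4c line (Ddit3, Nupr1, Slc7a11, Farsa, Wars and Qars) and Aars was lower, against 30.1% higher and 8.49% lower of 10672 genes. Among genes at 30 TPM or more in either library, 7 of 36 members were 2-fold apart, against 15.7% of genes. Most of these ratios rest on a library or a transcript already described. Nupr1 is a further case, since its coding transcript was lower, not higher, in GFP-negative cells from the GFP-Zscan4c line, at 14.4 TPM against 49.9 TPM in the GFP line. Transcripts annotated for nonsense-mediated decay made up 62.6 TPM of Nupr1 in GFP-negative cells from the GFP-Zscan4c line and were listed at 0 in those of the GFP line. Qars, the glutamine enzyme, was at 196 TPM in GFP-positive and 189 TPM in GFP-negative cells from the GFP-Zscan4c line, and at 155 TPM in GFP-positive and 93.4 TPM in GFP-negative cells from the GFP line. Retained-intron transcripts made up 145 and 124 TPM of it in GFP-positive and GFP-negative cells from the GFP-Zscan4c line, and 123 and 85.2 TPM in those of the GFP line. Its coding level was lower in the GFP-Zscan4c line among GFP-positive cells, at 8.45 TPM against 13.9 TPM in the GFP line.

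**Figure D5:**
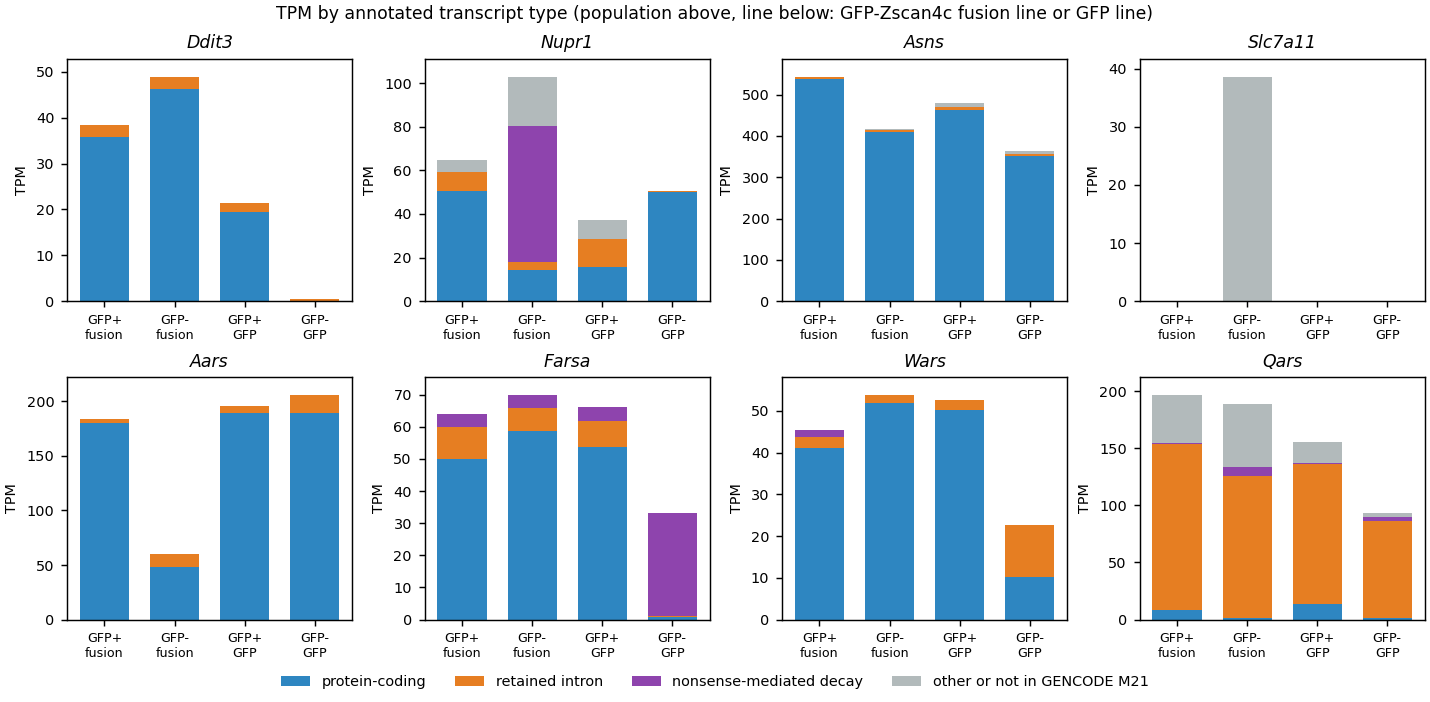
TPM of Ddit3, Nupr1, Asns, Slc7a11, Aars, Farsa, Wars and Qars in the 4 libraries, split by transcript type (protein-coding, retained intron, nonsense-mediated decay, other). The coding part of Ddit3 is at 0 and that of Farsa at 0.64 TPM in GFP-negative cells from the GFP line, and Qars is mostly retained intron in all 4.

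Over both populations, each library from the GFP-Zscan4c line lay above each of the GFP line for 18 of 38 members, against 16.6% of 11798 genes, and below for 3, against 16.4%. Among genes at 30 TPM or more in any library, the shares were 11.3% above and 24.8% below. For the line term of limma, 0 of 38 members and 0.0% of genes were called at an adjusted p of 0.05, and 2 members and 523 genes had an unadjusted p under 0.05. These were Nupr1 (estimate 0.89, standard error 0.19, limma unadjusted p = 0.0130) and Trib3 (estimate 0.79, standard error 0.19), with an adjusted p of 0.780 for both. With the values quantile normalized, limma called 5 members for line and 1 for GFP status, beside 249 and 328 of 14379 genes. It called 0 of either with the TPM as deposited. After quantile normalization the smallest limma adjusted p of any gene was 1.61e-118 for line and 4.71e-114 for GFP status. With 1 residual degree of freedom such values are not credible, so these calls are not read as evidence.

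Genes around the response were read from lists of fixed membership. Of 17 regulators upstream of ATF4 with a row, the eIF2 kinase of the endoplasmic reticulum, Eif2ak3, was 2-fold or more higher in GFP-positive cells of both lines. It was at 14.6 TPM in GFP-positive and 1.23 TPM in GFP-negative cells from the GFP-Zscan4c line, and at 16.3 TPM in GFP-positive and 6.07 TPM in GFP-negative cells from the GFP line. In this list 2 of 17 genes were higher and 0 lower in the GFP-Zscan4c line, and 4 of 16 were higher and 1 lower in the GFP line. Beside these and the lists that follow stand 8.23% of all genes higher and 3.14% lower in the GFP-Zscan4c line, and 33.2% higher and 7.48% lower in the GFP line. Atf6, a sensor of unfolded protein, likewise was at 9.64 TPM in GFP-positive and 0.12 TPM in GFP-negative cells from the GFP-Zscan4c line, and at 9.08 TPM in GFP-positive and 0.016 TPM in GFP-negative cells from the GFP line. Of the unfolded protein list, 2 of 15 genes were higher and 0 lower in the GFP-Zscan4c line, and 3 of 15 higher and 0 lower in the GFP line, where 33.2% of all genes were higher.

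Of other described targets of ATF4, 0 of 24 were 2-fold apart by GFP status in the GFP-Zscan4c line, with a median log2 ratio of 0.11, and in the GFP line 1 of 23 was higher and 2 were lower. Between lines in GFP-positive cells their median log2 ratio was 0.29, with 1 of 24 higher and 1 lower. One-carbon genes had 0 of 14 apart in the GFP-Zscan4c line and 4 of 14 higher in the GFP line. The mitochondrial synthetases had 0 of 17 apart in the GFP-Zscan4c line. In the GFP line 8 of 15 were higher, against 33.2% of all genes, and 1 was lower. Of these, Aars2, Ears2, Fars2, Pars2 and Yars2 were listed at 0 in its GFP-negative library. Of the 3 scaffold proteins of the multisynthetase complex, 0 were apart in the GFP-Zscan4c line and 1, Aimp2, was higher in the GFP line. Among 13 genes of hypoxia and glucocorticoid signalling, which also induce Ddit4, P4ha2 was 2-fold or more higher in GFP-positive cells of both lines. This collagen hydroxylase was at 116 TPM in GFP-positive and 21.2 TPM in GFP-negative cells from the GFP-Zscan4c line, and at 67.6 TPM in GFP-positive and 12.3 TPM in GFP-negative cells from the GFP line. The list had 2 of 13 higher and 0 lower in the GFP-Zscan4c line and 4 of 12 higher and 1 lower in the GFP line.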

How the data were processed

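RNA was read from 4 sorted libraries, 1 for each population of 2 lines. The deposited values are TPM for each transcript, as the authors made them. The tools listed in the submitters' processing notes are CASAVA, HISAT2 2.1.0 and StringTie 1.3.5, on the build GRCm38 (mm10). Not given in the sources used here are their options, the strandedness and the annotation release. The TPM summed to 66.6% to 69.1% of a full scale. GENCODE M21 gave the position and type of 58388 of them, and 465 had no match.

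The members and all lists were chosen with earlier results of these data known. TPM were summed for each symbol. Ratios are log2((TPM + 1)/(TPM + 1)), which understates the change of low genes. A gene counted as apart at a ratio of 2-fold or more, provided that either library reached 5 TPM, with no test. limma 3.58.1 in R 4.3.3 (trend and robust, two-sided, Benjamini-Hochberg over the 14379 genes that reached 1 TPM in 2 or more libraries) was fitted with terms for GFP status and for line. The error behind its p-values is the disagreement of the GFP ratio between the 2 lines, drawn toward a trend over all genes. That disagreement may be technical. The step was tested on simulated data. Members are named when they are 2-fold or more apart in any comparison or among the 3 most abundant of their group, along with Atf4, Ddit3 and Asns. Other members described were chosen after their values were seen. Genes of other lists are named when 2-fold or more apart the same way in both lines, and those listed at 0 were added after seeing the data. A rule on likeness to Atf4 across libraries was not used, since 4 libraries are too few.

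The marker lists gave these summed TPM, in the order GFP-Zscan4c line GFP-positive and GFP-negative, then GFP line GFP-positive and GFP-negative. Pluripotency genes summed to 3342, 3033, 3127 and 3662. Primitive endoderm genes (4 of 8 with a row) summed to 3.07, 0.716, 2.22 and 0. Trophectoderm genes (4 of 6) summed to 29.1, 39.4, 38.8 and 39.4. Fibroblast genes (3 of 6) summed to 7.42, 0.114, 11.9 and 0.

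Alternatives were pseudocounts of 0.1 and 5, median-ratio scaling, quantile normalization, no filter, genes above 0 in all libraries, a 1.5-fold threshold and leaving out each library. Coding transcripts alone and a minimum of 30 TPM were added after seeing the data. Python 3.11.15 was used for the rest.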

Additional observations from a re-analysis of the deposited data

Results flagged for a closer look

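Among members whose ratio of GFP-positive over GFP-negative cells pointed in opposite ways in the 2 lines, 6 were flagged as far apart. With 1 library for each population, none of these differences was tested. Given as the log2 ratio in the GFP-Zscan4c line minus that in the GFP line, the difference was -4.22 for Ddit3, -5.34 for Slc7a11, -1.40 for Wars and -1.10 for Farsa. It was 1.68 for Aars and 0.75 for Vars. Farsb (0.748), Cebpg (0.725) and Sesn2 (0.692) also pointed in opposite ways, with differences close to that of Vars, but were not flagged. Each of the 6 flagged values rests on 1 library. GFP-negative cells from the GFP line were low for Ddit3, Wars and Farsa and high for Vars. GFP-negative cells from the GFP-Zscan4c line were high for Slc7a11 and low for Aars.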

How the results depend on the processing

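Counts of members past 2-fold depended on the threshold, the filter and the transcripts kept. For GFP status in the GFP line the 2 became 7 of 37 at 1.5-fold, 5 of 37 with coding transcripts and 1 of 34 at 30 TPM or more, against 52.6%, 51.4% and 18.2% of all genes. With quantile normalization the count was again 2, with Cebpg in place of Wars. In the GFP-Zscan4c line the 2 became 1 among genes above 0 in all libraries, against 9.06% of genes. For the lines in GFP-positive cells the 0 became 6 at 1.5-fold (Ddit3, Nupr1, Trib3, Chac1, Ddit4 and Cebpg), against 19.1% of genes in either direction, and 1 with coding transcripts, against 9.84%. In GFP-negative cells the 7 became 4 of 38 with a pseudocount of 5 and 11 of 38 at 1.5-fold, against 32.1% and 51.4% of genes. The ratio of Nupr1 there turned to -1.73 with coding transcripts.

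Of the 12 class medians, 2 turned sign with median-ratio scaling, 1 with quantile normalization and 2 with coding transcripts. Stress genes turned to 0.087 for GFP status in the GFP line with coding transcripts, and in the GFP-Zscan4c line they were at 0.015 with median-ratio scaling and 0.037 with quantile normalization. For GFP status in the GFP line, amino acid genes were at 0.058 with coding transcripts and synthetases at 0.23 with quantile normalization. In the GFP-Zscan4c line, amino acid genes were at -0.13 with median-ratio scaling and -0.043 with quantile normalization, and synthetases were at -0.046, 0.022 and, with coding transcripts, 0.15. For the lines in GFP-positive cells, median-ratio scaling gave 0.21 for amino acid genes and 0.10 for synthetases, and coding transcripts gave 0.078 for synthetases. In GFP-negative cells, median-ratio scaling gave 0.63 for stress genes, 0.37 for amino acid genes and 0.26 for synthetases. Quantile normalization gave 0.43 for amino acid genes and 0.28 for synthetases, and coding transcripts gave 0.28 and 0.14. The all-gene median in that comparison moved from 0.04 to 0.18 with median-ratio scaling and to 0.49 with coding transcripts. With coding transcripts the stress genes were also at 0.49. For GFP status in the GFP line the all-gene median moved from 0.19 to 0.82 with coding transcripts.

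With limma, quantile normalization gave 1 member call for GFP status and 5 for line, which are not read as evidence for the reason given above. Leaving out each library in turn, with the term fitted alone and a lone library assumed to vary like the others, gave 0 to 5 member calls for GFP status and 0 to 3 for line. The 5 came without the GFP-negative library from the GFP-Zscan4c line (4204 genes called) and the 3 without the GFP-positive library from the GFP line (3211 genes called). The cause of these shifts was not tested. The limma fit compares GFP status within line, since line is a term, and the labels give no replicate numbers for another pairing.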

Other observations

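Lars2, the mitochondrial leucine enzyme, was chosen after its values were seen. It was at 458.8 TPM in GFP-positive and 850.5 TPM in GFP-negative cells from the GFP-Zscan4c line and was listed at 0 in both libraries from the GFP line. Its transcripts were not split by type here, and these 0 values are not read as absence. Wars2 and Mthfd2l, also chosen after their values were seen, were listed at 0 in the same pair of libraries and stood at 1.86 TPM or less in the other pair. Nars2, chosen likewise, was at 6.04 TPM in GFP-positive and 3.94 TPM in GFP-negative cells from the GFP-Zscan4c line. In the GFP line Nars2 was at 0.107 TPM in GFP-positive and 0.115 TPM in GFP-negative cells. What lies behind these splits was not tested.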
